A study of Mus musculus with 4 samples.

Results

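The respiratory chain genes of the nuclear genome were followed across the cell classes, tissues and treatments of a mouse tumour experiment. The set was taken by symbol: every row whose name starts with Nduf, Uqcr, Cox4, Cox5, Cox6, Cox7, Cox8 or Atp5, and Sdha to Sdhd, without pseudogenes marked -ps. This gave 94 of the 31253 gene rows, of which 46 belong to complex I, 4 to complex II, 8 to complex III, 18 to complex IV and 18 to complex V, the ATP synthase. Assignment was by symbol, so Ndufa4 (now placed in complex IV) and its relative Ndufa4l2 are in the complex I sums. They carry 93 symbols, because Atp5o is listed under 2 Ensembl identifiers (ENSMUSG00000022956 and ENSMUSG00000116933). Among the complex I rows are 8 Ndufaf assembly factors, which build the complex and are not part of it. The 13 protein-coding mt- genes of the mitochondrial genome were set beside them. In every library 93 of the 94 rows had at least 1 UMI (a unique molecular identifier, which counts 1 captured RNA molecule), and Cox8c had none.

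The respiratory chain sits in the inner mitochondrial membrane. Complex I (NADH dehydrogenase) and complex II (succinate dehydrogenase) pass electrons through complex III (the cytochrome bc1 complex) to complex IV (cytochrome c oxidase), and complex V uses the resulting proton gradient to make ATP. Complex II is encoded wholly in the nucleus, while the other complexes mix nuclear subunits with subunits made from mitochondrial DNA, so that their genes are transcribed in separate compartments. In immune cells the demand on this chain differs between resting, dividing and secreting states.

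The 4 libraries came from female mice of 4 to 8 weeks bearing tumours of CT26, a mouse colon carcinoma line. They hold tumour cells and cells of the tumour-draining lymph node (TDLN), each once after NanoCa, a calcium-containing lipid nanoparticle, and once labelled mock with a treatment tag of no treatment. A protocol entry shared by the 4 libraries gives NanoCa as the treatment, which goes against the mock labels. No source used here states the strain, the dose, the number of mice or the sort gate, beyond staining with antibodies against CD45, the pan-leukocyte antigen encoded by Ptprc. All libraries carry the same batch date and were made with the 10x Genomics 3' v2 chemistry. There was 1 library per group, so no test between groups was possible and no p-value is given. Levels are a gene's UMIs as a share of all UMIs of a cell class, on the usual CPM scale, and ratios are log2 differences of CPM. Runs of 4 values follow 1 library order: NanoCa tumour, mock tumour, NanoCa node, mock node. All intervals are exact and 95%, and cover counting error only. A gene was counted as higher or lower where it had at least 50 UMIs over the pair compared, its interval excluded 0 and the levels differed at least 1.5-fold.

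In that order the libraries held 11287, 9404, 11072 and 10400 barcodes, with 167924801, 148121144, 74909974 and 106579362 UMIs. The filters at 200 genes and 10% mt- UMIs kept 11215, 9281, 11013 and 10268 barcodes, and calling of doublets left 10209, 8592, 10043 and 9425. Each pair of libraries shared between 121 and 183 barcode sequences, at most 1.65% of a library. Although the labels call the cells immune, 6315 and 5329 of the tumour cells (NanoCa and mock) and 329 and 1027 of the TDLN cells lay in clusters very low in Ptprc and Xist. In this class 7 or 8 of 9 carcinoma markers had UMIs and summed to 388 to 494 CPM, and it is called Xist-low here. Detection alone says little in sums this large. Against the rest of their tissue, 0 to 3 of the 9 were enriched in its clusters. Most tumour cells are of this class, which limits that measure there. Tumour clusters 5 and 13 and TDLN clusters 16 and 18 had 4, 6, 5 and 4 of 8 fibroblast markers enriched. What cells the class holds was not tested. Other classes are named only for the markers that lead them, as T-like and so on, and 1011, 786, 313 and 598 cells lay in clusters left unnamed. A share of leaked RNA was estimated for each immune class from Rhox5, Krt8 and Krt18. It is the summed CPM of these genes in the class over that in all kept cells of the library. This share lay between 2.85% and 16.3% in the TDLN immune classes and between 6.88% and 69.4% in the tumour immune classes. The library levels were 367, 340, 155 and 244 CPM, so shares from different libraries have different references.

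An exact palindromic NRF1-type motif, the letters GCGCATGCGC, stood in the 250 bases before the gene start of 5 members. They are shown because NRF1 is a textbook regulator of respiratory chain genes. Atp5k and Atp5g2 return below in the treatment comparison, where their tumour ratios had opposite signs. The capitals mark the motif and the sequences are the gene strand, from RefSeq on GRCm38.p6.
Ndufa11, complex I, chr17:56717692-56717721, plus strand: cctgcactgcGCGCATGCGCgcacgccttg
Ndufaf4, complex I assembly, chr4:24897960-24897989, plus strand: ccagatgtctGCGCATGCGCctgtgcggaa
Cox6a1, complex IV, chr5:115349101-115349130, minus strand: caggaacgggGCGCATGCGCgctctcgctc
Atp5g2, complex V, chr15:102671070-102671099, minus strand: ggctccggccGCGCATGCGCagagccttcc
Atp5k, complex V, chr5:108434430-108434459, minus strand: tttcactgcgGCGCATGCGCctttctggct

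A RefSeq promoter was found for 77 of the 94 rows, giving 81 promoters. The motif GCGCATGCGC, searched on both strands, was in 5 of these 81 (6.17%), in 1.35% of 16020 promoters of genes with at least 50 UMIs and in 0.782% of all 32851. With any base at the sixth position (GCGCANGCGC, which includes the former) the counts were 15 of 81 (18.5%), against 6.64% and 3.74%. These are counts of promoters, and Ndufa5 enters more than once through overlapping promoters that hold the same site. The ETS-type letters CCGGAAG stood in 17.3% of the member promoters and 11.6% of the measured ones, and the YY1-type letters ATGGCGGC in 2.47% and 1.66%. The GC box GGGCGG was in 38.3% against 51.7%, CCAAT in 43.2% against 35.0% and TATAAA in 9.88% against 7.62%. A match describes these letters only and is no evidence of binding.

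The share of RNA from the nuclear respiratory chain genes differed between cell classes. In the TDLN the nuclear genes made up 1.72% of UMIs in B-like cells of the NanoCa library and 1.81% in the mock library. T-like cells held 1.86% and 1.96%, and a cluster whose leading genes include Jchain, Mef2b, Rgs13 and Mzb1 held 2.81% and 2.84%. Jchain encodes the chain that joins secreted antibodies into polymers. The cluster held 227 and 367 cells with 8 of 8 B-cell markers at a summed 5293 and 5494 CPM, and is called the Mef2b Rgs13 cluster. Its share was the highest of the TDLN classes in both libraries, ahead of the Xist-low cells at 2.69% and 2.62%.

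The myeloid classes lay between. Monocyte/macrophage-like cells held 2.35% and 2.34% in the TDLN (NanoCa and mock) and 2.64% and 2.58% in the tumour. Mature-DC-like cells, which carry the migration receptor gene Ccr7, held 1.81% and 1.97%. In the tumour the Xist-low cells were highest at 2.74% and 2.77%. Plasmacytoid-DC-like cells held 2.69% and 2.42%, NK-like cells 2.58% and 2.66%, and T-like cells 2.34% and 2.43%. Neutrophil-like cells were lowest at 1.54% and 1.503%, and 70 of 92 members in the NanoCa library and 72 of 90 in the mock library had their lowest class level there. That class had only 88 and 128 cells, and 69.4% and 60.4% of its UMIs were estimated as leaked RNA. That estimate cannot hold for this class, because subtraction at these shares left negative nuclear shares (-1.15% and -0.379%). The classes thus spread more widely than the treatments of any class. Of 90 members 72 had the same highest class in both TDLN libraries, and 56 of 90 in both tumour libraries. With each cell thinned to 1000 UMIs these were 45 and 33. Neither these counts nor those of the lowest class were set beside all genes, so they are not read as particular to the members.

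**Figure D1:**
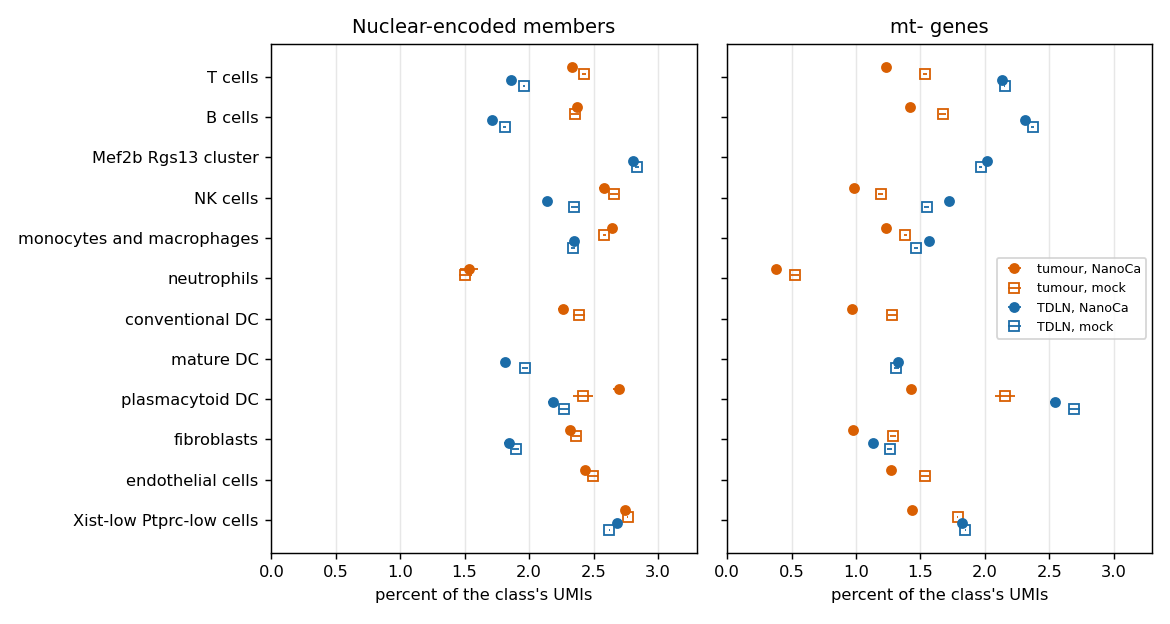
Share of a class's UMIs from the nuclear respiratory chain genes and from the mt- genes, in percent, for each cell class and library; points are libraries and bars are exact 95% binomial intervals, which cover counting error only. The Mef2b Rgs13 cluster stands at 2.81% and 2.84% nuclear, above TDLN B-like cells at 1.72% and 1.81%, while its mt- share (2.01% and 1.97%) is below theirs (2.31% and 2.37%).

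The 5 complexes had similar proportions in most classes, with complex V above complex I above complex IV. In TDLN T-like cells of the mock library complex I gave 0.587% of UMIs, complex II 0.0373%, complex III 0.180%, complex IV 0.446% and complex V 0.711%. In the Mef2b Rgs13 cluster of that library the same complexes gave 0.838%, 0.0581%, 0.238%, 0.679% and 1.02%, so that each was higher. Mature-DC-like cells departed from this order. There complex IV (0.574% in the mock library and 0.546% in NanoCa) was above complex I (0.546% and 0.504%) and close to complex V (0.624% and 0.558%).

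Nuclear and mitochondrial genes did not move together. The nuclear share was larger than the mt- share in 32 of the 38 class and library pairs. The 6 exceptions were the T-like, B-like and plasmacytoid-DC-like cells of both TDLN libraries, where the ratio of nuclear to mt- UMIs was 0.873 and 0.911, 0.742 and 0.764, and 0.860 and 0.842 (NanoCa and mock). In the tumour the same T-like and B-like ratios were 1.90 and 1.58, and 1.67 and 1.41. The mt- share is bounded from above by the filter at 10%, which removed 0.533% to 1.31% of barcodes.

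Several members exist as paralogue pairs, and these showed the most restricted patterns. Cox6a2, the heart and muscle form of a complex IV subunit, stood at 656, 1368, 1679 and 1959 CPM in plasmacytoid-DC-like cells. It was at or below 24.7 CPM in every other class, and at 16.9, 16.4, 7.46 and 8.06 CPM in Xist-low cells. Cox6a2 is also known as a marker of these dendritic cells and was left out of their naming. The tumour NanoCa value is the lowest of the 4, and there 63.4% of the class's UMIs were estimated as leaked RNA against 20.1% in the mock tumour and 2.85% and 7.80% in the TDLN. Cox6a1, the general form, stood at 474, 363, 273 and 254 CPM in the same cells.

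Cox4i2, the paralogue of Cox4i1 known from lung and from low oxygen, stood at 56.4 and 50.5 CPM in tumour fibroblast-like cells and at 28.9 and 4.47 CPM in those of the TDLN (NanoCa and mock), the last from 5 UMIs. Endothelial-like cells of the tumour held 14.2 and 54.9 CPM, and the Xist-low cells 0.114, 0.0932, 0.360 and 0.260 CPM in library order. Cox4i1 itself was between 721 and 898 CPM in all fibroblast-like cells. Ndufa4l2, a hypoxia-induced relative of Ndufa4, showed a similar distribution. It stood at 216, 132, 215 and 76.8 CPM in fibroblast-like cells of the same libraries, at 42.6 and 73.8 CPM in tumour endothelial-like cells and at 12.7, 22.7, 37.8 and 19.1 CPM in Xist-low cells. Fibroblast-like classes held 47 to 159 cells. In the tumour their carcinoma markers summed to 670 and 1654 CPM against 77.7 and 67.0 CPM in the TDLN. Over both tumour libraries they held Krt18 at 293 CPM and Rhox5 at 64.2 CPM. The tumour Xist-low clusters held Krt18 at 90.5 CPM or less and Rhox5 at 133 CPM or more. In the tumour fibroblast-like cluster 7 of the carcinoma markers were enriched, and Xist stood at 249.5 CPM. The part of the carcinoma markers in the Cox4i2 and Ndufa4l2 levels was not tested.

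Cox7a2l, whose protein helps to assemble complexes III and IV into supercomplexes, was highest in mature-DC-like cells (292 and 362 CPM, NanoCa and mock) and TDLN T-like cells (255 and 274 CPM). In monocyte/macrophage-like cells Cox7a2l stood at 147, 132, 150 and 137 CPM in library order. The muscle form Cox7a1 stayed at or below 16 CPM, its highest value being in monocyte/macrophage-like cells of the mock tumour, and the general form Cox7a2 reached 576, 602, 492 and 504 CPM in NK-like cells. The muscle and testis paralogues Cox8b, Cox7b2 and Cox6b2 were near the limit of detection, and Cox6b2 did not pass 10.3 CPM in a class. The Atp5o row ENSMUSG00000116933 did not pass 8.93 CPM, against 90.5 to 420 CPM for ENSMUSG00000022956; how the counting split reads between them is not known.

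**Figure D2:**
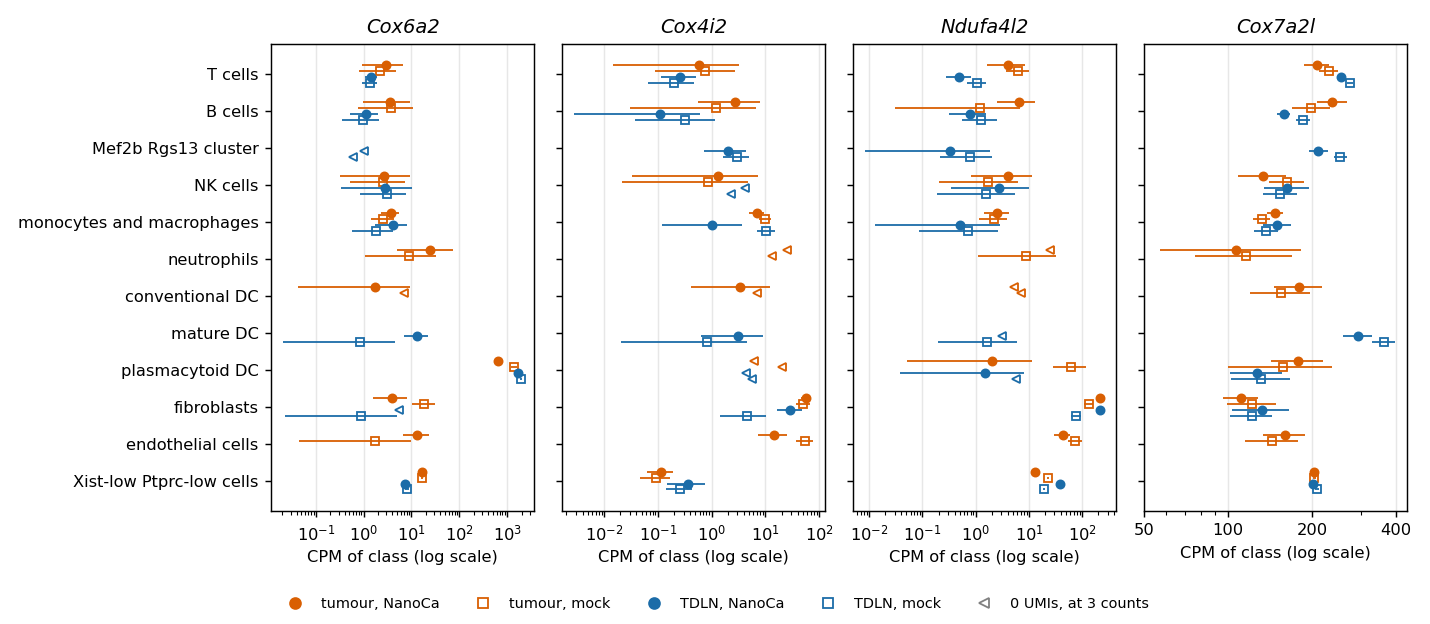
Levels of Cox6a2, Cox4i2, Ndufa4l2 and Cox7a2l by cell class in CPM on a log scale, with a point per library, exact 95% Poisson intervals as bars and triangles at 3 counts where a class had 0 UMIs. Cox6a2 stands between 656 and 1959 CPM in plasmacytoid-DC-like cells and at or below 24.7 CPM elsewhere, and Ndufa4l2 is highest in fibroblast-like cells.

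The Mef2b Rgs13 cluster had a larger share of nuclear respiratory chain RNA than the B-like cells of the same node. Its cells had a median of 2.47 times the UMIs of their library's median cell, against 0.93, 0.79 and 0.40 in the B-like clusters. Leaked RNA was estimated at 5.12% and 5.07% in the cluster (NanoCa and mock) and at 10.4% and 16.3% in B-like cells. The cluster and the B-like cells both carry markers of the B lineage. The 6 plasma cell markers, all detected in both, summed to 2189 and 2047 CPM in the cluster (NanoCa and mock) and to 165.5 and 204.5 CPM in B-like cells, and by mean marker level the cluster was nearer to plasma cells than to B cells. Monocyte and macrophage markers summed to 643 and 807 CPM against 366 and 504 CPM. The part of either list in the ratios was not tested. In the NanoCa library 52 of 85 members were higher and 0 lower, where 22.6% of all genes were higher and 23.9% lower. In the mock library 49 were higher and 1 lower, where 21.8% and 25.3% of all genes were. Of these, 46 were higher in both libraries and 0 lower in both, and the median log2 ratio of the members was 0.69 and 0.70. The clusters were formed on gene levels of the same cells, so these ratios and counts are descriptions.

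Every complex took part. In the NanoCa and the mock library 26 and 25 of 45 complex I members were higher, 2 and 2 of 4 of complex II, 4 and 4 of 8 of complex III, 8 and 7 of 11 of complex IV and 12 and 11 of 17 of complex V. The iron-sulfur subunit of complex II, Sdhb, stood at 290 and 328 CPM in the cluster and at 126 and 120 CPM in B-like cells, log2 ratios of 1.20 (1.07 to 1.33) and 1.44 (1.32 to 1.57). The flavoprotein of the same complex, Sdha, was at 116 and 103 CPM against 126 and 119 CPM, so that 2 subunits that bind each other in the enzyme did not differ alike in RNA. The membrane anchor Sdhc stood at 39.7 and 45.8 CPM against 34.2 and 32.2 CPM and was not called in either library.

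In complex I, Ndufc2 of the membrane arm stood at 278 and 299 CPM against 99.2 and 125 CPM, with ratios of 1.49 (1.35 to 1.63) and 1.255 (1.13 to 1.38). The iron-sulfur subunit Ndufs8 stood at 208 and 219 CPM against 87.5 and 90.5 CPM, and the assembly factor Ndufaf3 at 49.7 and 62.7 CPM against 25.2 and 24.8 CPM. Ndufs1, which carries several iron-sulfur clusters of the same arm as Ndufs8, was at 43.0 and 43.1 CPM against 37.8 and 39.2 CPM and was not called. The cluster lay above the B-like cells for Ndufc2, Ndufs8 and Ndufaf3 in each library, while the levels of Ndufs1 differed by less than their counting error.

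In complex III the core subunit Uqcrc1 stood at 258 and 253 CPM against 153 and 150 CPM, while the hinge protein Uqcrh, at 573 and 574 CPM against 496 and 501 CPM, was not called. In complex IV Cox4i1 stood at 1238 and 1287 CPM against 736 and 790 CPM, and Cox5a at 476 and 495 CPM against 287 and 303 CPM. In complex V the catalytic β subunit Atp5b stood at 851 and 828 CPM against 431 and 469 CPM, and the α subunit Atp5a1 at 673 and 698 CPM against 394 and 402 CPM. Of the 3 genes for the identical ring subunit c, Atp5g3 was called higher in both libraries at 1117 and 1132 CPM against 528 and 562 CPM, and Atp5g1, at 386 and 405 CPM against 263 and 309 CPM, was not called.

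The mt- genes were not higher with them. All 13 had a ratio below 0 in both libraries, with a median log2 ratio of -0.21 and -0.29, and mt-Co1, the catalytic subunit of complex IV, had ratios of -0.14 and -0.23. With each cell thinned to 1000 UMIs the mock ratio of mt-Nd6 was 0.75 in place of -0.62. Among other mitochondrial lists, 49 and 45 of 78 genes of the mitochondrial ribosome were higher (NanoCa and mock). Of the tricarboxylic acid cycle 7 and 4 of 16 were higher, of glycolysis 6 and 7 of 13 were higher and 2 and 2 lower, and of the cytosolic ribosome 4 and 3 of 91 were higher and 6 and 6 lower. The mitochondrial ribosome thus had the share of higher genes nearest to that of the nuclear respiratory chain.

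**Figure D3:**
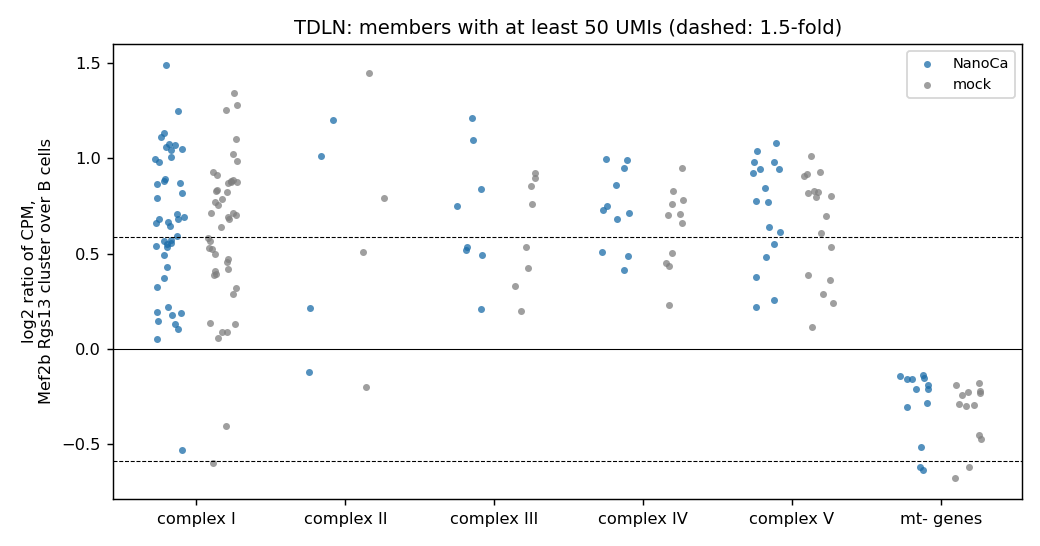
Log2 ratio of CPM in the Mef2b Rgs13 cluster over B-like cells of the TDLN, by complex and for the mt- genes, in the NanoCa and the mock library; each point is a gene and dashed lines mark 1.5-fold. The members have a median of 0.69 and 0.70, and all 13 mt- genes lie below 0.

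Mature-DC-like cells showed another balance of complexes when set beside T-like cells of the node. In the NanoCa library 8 of 87 members were higher and 20 lower (17.3% and 32.5% of all genes), and in the mock library 6 of 85 were higher and 14 lower (16.9% and 34.1%). In both libraries Cox6b1, Cox5a, Cox7c, Atp5l, Ndufaf3 and Ndufb4 were higher, the first 3 being complex IV subunits. Another 12 were lower in both, among them Sdhb and Sdhc of complex II and Atp5g1, Atp5g3, Atp5a1, Atp5b, Atp5d and Atp5o of complex V. The members' shares of higher and of lower calls were both below those of all genes. The summed ratio of complex IV was 0.38 and 0.36 and that of complex V -0.27 and -0.19 (NanoCa and mock).

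The values of Cox5a and of the ring subunit genes show both sides of this. Cox5a, a matrix-side subunit of complex IV, stood at 602 and 544 CPM in mature-DC-like cells and at 252 and 286 CPM in T-like cells, ratios of 1.26 (1.14 to 1.38) and 0.93 (0.81 to 1.04). Atp5g1 stood at 112 and 150 CPM against 304 and 345 CPM, and Atp5g3 at 263 and 329 CPM against 592 and 644 CPM. The third ring gene, Atp5g2, stood at 798 and 902 CPM against 659 and 781 CPM, so that the 3 genes for the same protein did not differ in the same direction.

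Monocyte/macrophage-like cells against T-like cells gave 20 of 87 members higher and 3 lower in the TDLN NanoCa library (22.3% and 30.4% of all genes) and 17 of 86 higher and 4 lower in TDLN mock (22.6% and 33.6%). In the tumour 8 of 86 were higher and 1 lower (21.0% and 26.7%) in the NanoCa library, and 8 of 87 higher and 3 lower (20.6% and 31.0%) in mock. The share of higher members was near that of all genes in the TDLN and below it in the tumour, and the share of lower members was below it in all 4 libraries. Ndufb8, a membrane-arm subunit of complex I, was called higher in all 4 libraries: 399, 361, 336 and 347 CPM in the myeloid class and 214, 208, 154 and 167 CPM in T-like cells. Cox5a was also higher in all 4, with ratios of 0.61, 0.59, 0.95 and 0.88, as was Uqcr11 of complex III with 0.78, 0.61, 0.93 and 0.93, both in library order. Uqcrh went the other way, with ratios of -0.68, -0.79, -0.58 and -0.79, and was called lower in all but TDLN NanoCa. The 2 complex III subunits thus had opposite orders between these classes.

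Fewer members were called between NK-like and T-like cells, and their shares were below those of all genes. In the TDLN 4 of 86 members were higher and 2 lower in the NanoCa library (14.0% and 8.10% of all genes) and 6 of 85 higher and 1 lower in mock (14.8% and 12.1%). Atp5d, the δ subunit of the ATP synthase, and Cox5a, Cox7a2 and Cox8a of complex IV were higher in both, and Cox7a2l was lower in both. Cox8a stood at 1091 and 1213 CPM in NK-like and at 629 and 693 CPM in T-like cells (NanoCa and mock).

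NanoCa over mock gave few members past the call rule. In the tumour, 0 of 83 members were higher and 1 lower in T-like cells, where 6.43% of all genes were higher and 2.77% lower. B-like cells had 0 of 80 in either direction (7.89% and 3.60%), NK-like cells 0 of 81 (5.31% and 2.42%), monocyte/macrophage-like cells 2 higher and 1 lower of 88 (7.60% and 2.70%), and Xist-low cells 1 higher and 2 lower of 90 (5.81% and 3.77%). The members' median log2 ratio lay between -0.03 and 0.05 in these 5 classes. With a scaling by trimmed mean (TMM) the 7 calls, 3 higher and 4 lower, became 3 higher and 7 lower.

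The lower call in tumour T-like cells and 1 of the 2 in Xist-low cells were of Atp5k, the membrane subunit e of the ATP synthase, which sits where the enzyme forms dimers. Atp5k stood at 70.2 CPM with NanoCa and 106 CPM with mock in T-like cells, a ratio of -0.59 (-0.91 to -0.28), and at 62.8 and 94.8 CPM in Xist-low cells, -0.59 (-0.64 to -0.55). In the other tumour classes Atp5k was at 86.7 against 124 CPM (monocyte/macrophage-like), 79.0 against 108 CPM (B-like) and 79.1 against 102 CPM (NK-like), none of them called. NanoCa was below mock for Atp5k in all 5 tumour classes, while TDLN T-like cells held 69.7 and 69.2 CPM. The 5 classes come from the same libraries, so they are not independent, and treatment and library cannot be told apart. The 20 genes nearest to Atp5k on chromosome 5 had a median ratio of 0.00 in Xist-low cells.

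Members of the ATP synthase lay on both sides of 0 in the tumour. Of 17 measured in all 5 classes, Atp5e, Atp5j2, Atp5k, Atp5md and Atp5mpl had ratios below 0 in every class, and Atp5c1, Atp5g1, Atp5g2 and Atp5h above 0 in every class. Members of other complexes, among them Ndufa3, Ndufb2, Uqcr10, Cox6c and Cox7c, were also below 0 in all 5. Others, among them Ndufb3, Ndufb11, Sdhc and Cox4i1, were above 0 in all 5. Like signs in all 5 classes, which share their libraries, were thus not particular to the ATP synthase. Atp5md stood at 346 against 469 CPM in Xist-low cells, a ratio of -0.44 (-0.46 to -0.42), and Atp5mpl at 277 against 360 CPM. Of 80 members measured in all 5 tumour classes, Atp5e and Atp5md had intervals below 0 in every one, against 1.28% of 4154 genes, and Atp5g2 above 0 in every one, against 3.20%. In the node Atp5md and Atp5g2 leaned the other way: in T-like cells Atp5md stood at 287 against 249 CPM, a ratio of 0.21 (0.16 to 0.25), and Atp5g2 at 659 against 781 CPM, a ratio of -0.24 (-0.27 to -0.22). Of 77 members measured in all 7 TDLN classes, 0 had intervals on the same side in all. Of 3712 genes measured in all 7, 1.99% had them below 0 and 0.835% above 0 in every class.

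The 3 higher calls in the tumour were all of assembly factors. Ndufaf6 stood at 11.3 against 6.25 CPM in monocyte/macrophage-like cells, a ratio of 0.86, and at 16 against 10.4 CPM in Xist-low cells, a ratio of 0.62. Ndufaf7, a methyltransferase for a core subunit of complex I, stood at 17.5 against 10.1 CPM in monocyte/macrophage-like cells, a ratio of 0.79. Cox7a1 was lower there, at 9.83 against 16 CPM, and Ndufa4l2 was lower in Xist-low cells, at 12.7 against 22.7 CPM, a ratio of -0.84 (-0.93 to -0.75). The clusters of that class were filled unevenly by the libraries, cluster 1 taking 728 cells from NanoCa and 1104 from mock, and cluster 11 taking 544 and 67. Ndufa4l2 was lower with NanoCa in 8 of the 10 clusters, such as 16.8 against 36.4 CPM in cluster 1, and higher in cluster 8 (21.7 against 17.3 CPM) and in cluster 11 (8.07 against 3.85 CPM, the latter from 8 UMIs). All of these calls but that of Atp5k were of genes under 25 CPM.

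Among members at 50 CPM or more in the 3 largest tumour classes, the highest ratios were small. They were 0.22 for Ndufb5, 0.20 for Ndufa4 and 0.20 for Ndufb6 in Xist-low cells, 0.27 for Atp5g2, 0.30 for Ndufb11 and 0.19 for Cox4i1 in monocyte/macrophage-like cells, and 0.27 for Ndufa8, 0.20 for Ndufb11 and 0.11 for Atp5g2 in T-like cells. At the low end, beside Atp5k and Atp5md, stood Atp5mpl at -0.38 in Xist-low cells, Ndufv3 at -0.31 in monocyte/macrophage-like cells, and Ndufa3 at -0.38 and Cox8a at -0.25 in T-like cells. Ndufb11 and Atp5g2 were at the upper end in 2 of the 3 classes.

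**Figure D4:**
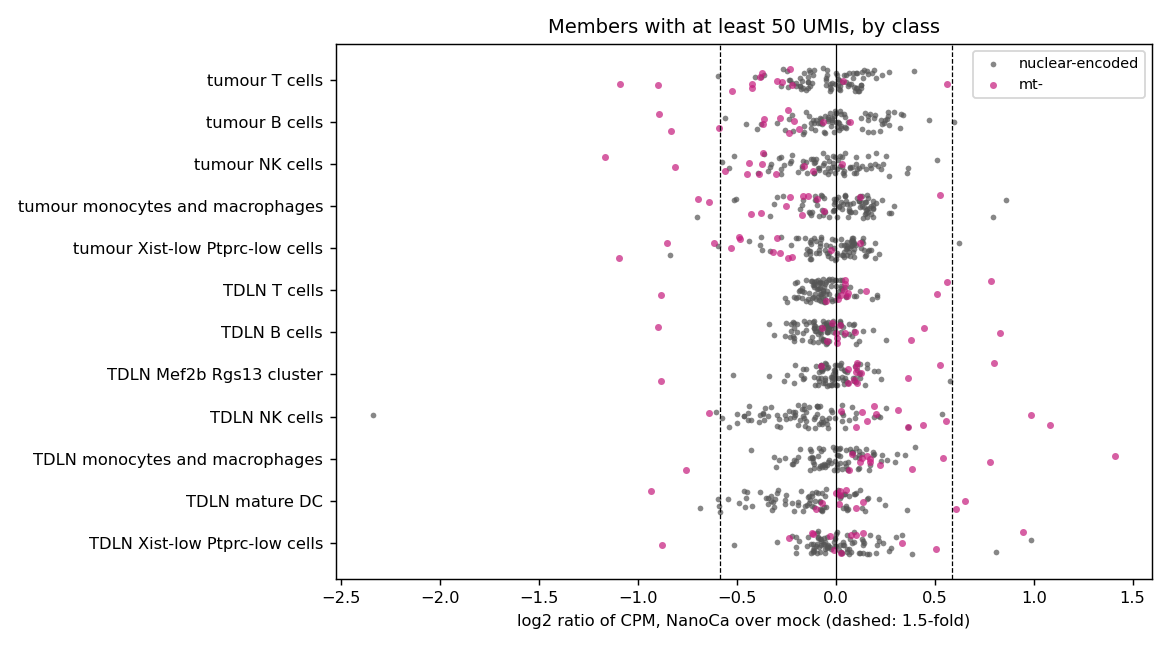
Log2 ratio of CPM, NanoCa over mock, for the respiratory chain members and the mt- genes in each cell class of the tumour and the TDLN; each point is a gene and dashed lines mark 1.5-fold. Members centre between -0.16 and 0.05 in the classes shown, and mt-Atp6 lies between -1.10 and -0.70 in the tumour and between 0.65 and 0.99 in the TDLN.

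In the TDLN the counts were as low. T-like cells had 0 of 88 members in either direction (2.20% of all genes higher and 7.86% lower), B-like cells 0 of 85 (2.11% and 7.22%), the Mef2b Rgs13 cluster 0 of 85 (2.91% and 4.76%) and monocyte/macrophage-like cells 0 of 83 (7.27% and 8.65%). NK-like cells had 0 higher and 1 lower of 80 (7.26% and 5.66%), mature-DC-like cells 0 higher and 3 lower of 79 (6.20% and 4.75%) and Xist-low cells 2 higher and 0 lower of 89 (7.25% and 6.59%). Median ratios ran from -0.16 in NK-like cells to 0.00 in monocyte/macrophage-like cells.

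In mature-DC-like cells, with 108 and 129 cells, the lower members were Ndufb3 at 74.2 against 119 CPM (-0.69), Cox7b at 118 against 177 CPM (-0.59) and Ndufa5 at 50.8 against 76.6 CPM (-0.59). In NK-like cells Ndufaf7 had 5 UMIs with NanoCa and 46 with mock, or 6.95 against 35.2 CPM, a ratio of -2.34 (-4.03 to -1.01). All 4 rest on classes of at most 182 cells in a library.

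In TDLN Xist-low cells Ndufa4 stood at 612 CPM with NanoCa and 349 CPM with mock, a ratio of 0.81 (0.78 to 0.84). Ndufa4l2 stood at 37.8 against 19.1 CPM, a ratio of 0.98 (0.85 to 1.12). The tumour values of the same class were 531 and 463 CPM for Ndufa4, and 12.7 and 22.7 CPM for Ndufa4l2, so that Ndufa4l2 was called in opposite directions in the 2 tissues. Within cluster 7, the largest of the class in the TDLN with 230 and 774 cells, Ndufa4 stood at 647 against 367 CPM (0.82) and Ndufa4l2 at 42.1 against 20.7 CPM (1.02). The 20 genes nearest to Ndufa4 on chromosome 6 had a median ratio of -0.01 in this cluster, and those nearest to Ndufa4l2 on chromosome 10 one of -0.02.

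Ndufb11, an X-linked complex I subunit, was at the low end in these cells, at 172 against 247 CPM, or -0.52 (-0.57 to -0.46). Of the 20 genes nearest to Ndufb11 on the X chromosome 16 were also below 0, with a median of -0.22, where the chromosome's genes had a median of 0.05. Atp5mpl (0.38) and Ndufb6 (0.34) were at the upper end in these cells, beside Ndufa4. In the T-like cells the extremes were 0.21 for Atp5md, 0.10 for Atp5mpl and 0.09 for Ndufa1, and -0.26 for Ndufv1, -0.24 for Atp5g2 and -0.21 for Ndufb9. In B-like cells they were 0.19 for Ndufa1, 0.14 for Ndufa3 and 0.09 for Atp5md, and -0.34 for Ndufc2, -0.25 for Atp5g2 and -0.23 for Atp5g1.

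The mt- genes had calls between the treatments in every one of these tumour classes. In the tumour 10 of the 12 measured in all 5 classes had intervals below 0 in every class, namely mt-Nd1, mt-Nd2, mt-Nd3, mt-Nd4, mt-Nd4l, mt-Nd5, mt-Co2, mt-Co3, mt-Atp6 and mt-Cytb. The mt- share was 1.53% with mock and 1.23% with NanoCa in T-like cells, and 1.79% and 1.43% in Xist-low cells. The ratio of mt-Atp6, a subunit of the proton channel of complex V, was -0.90 in T-like, -0.89 in B-like, -0.81 in NK-like, -0.70 in monocyte/macrophage-like and -1.10 in Xist-low cells, each called lower. In the TDLN the ratio of mt-Atp6 was 0.78, 0.83, 0.99, 0.78 and 0.95 in the same classes, each called higher.

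The mt-Atp8 ratios in the TDLN lay between -0.94 and -0.64 and in the tumour between -0.02 and 0.12. The 2 genes overlap on the mitochondrial genome, as do mt-Nd4l and mt-Nd4, and no source used here says how reads were split between them, so their separate levels are uncertain. The complex I gene mt-Nd3 had ratios of -1.17 to -0.64 in the tumour and of 0.45 to 0.61 in the TDLN. The same genes differed in every class of a library, and with 1 library per group the treatment and the library cannot be told apart.

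Few genes of the other mitochondrial lists were called. In tumour T-like cells 2 of 76 genes of the mitochondrial ribosome were higher and 1 lower, 0 of 16 of the tricarboxylic acid cycle in either direction, and 2 of 33 further assembly factors higher and 0 lower (6.43% and 2.77% of all genes). The glycolysis list in TDLN monocyte/macrophage-like cells had 0 of 15 genes higher and 10 lower (7.27% and 8.65% of all genes), with a median ratio of -0.75. Values of that list between the treatments in the other classes are not given here. In TDLN monocyte/macrophage-like cells 0 of 83 respiratory chain members were called and their median was 0.00. Markers in that class also differed between NanoCa and mock, at 18940 and 25610 CPM for the monocyte and macrophage list, 1349 and 531 CPM for neutrophils, 731 and 434 CPM for conventional DC and 311 and 108 CPM for mature DC, and their part in the glycolysis values was not tested. The electron carriers Cyc1 and Cycs, which link complexes III and IV, were not called in any of the 12 classes compared.

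Between tissues, the members leaned to the tumour in lymphocytes. In T-like cells 7 of 86 members were higher in the tumour and 0 lower in the mock libraries (16.4% and 14.9% of all genes), and 12 higher and 0 lower in the NanoCa libraries (19.6% and 12.9%). In B-like cells 13 of 85 were higher and 1 lower with mock (12.7% and 17.1%), and 26 higher and 0 lower with NanoCa (17.3% and 15.4%). The members' median ratio was 0.25 and 0.31 in T-like and 0.38 and 0.44 in B-like cells (mock and NanoCa). In T-like cells the counts of higher members were thus below the background in both treatments, and they were close to it or above it in B-like cells.

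NK-like cells had 0 of 82 in either direction with mock (5.81% and 15.1% of all genes), and 9 of 78 higher and 0 lower with NanoCa (10.2% and 20.8%). Monocyte/macrophage-like cells had 3 higher and 1 lower of 87 (6.70% and 16.6%) and 2 higher and 0 lower of 86 (12.2% and 12.9%), and Xist-low cells 2 higher and 0 lower (4.10% and 13.3%) and 1 higher and 2 lower of 90 (4.46% and 10.8%). Over the 4 immune classes this makes 25 calls with mock and 49 with NanoCa. Without removal of doublets they were 48 and 85.

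Called in both treatments in T-like cells were Cox7a1, Cox6b1, Uqcr11 and Ndufa7. Uqcr11 stood at 257 CPM in the tumour and 150 CPM in the node with mock, and at 227 and 139 CPM with NanoCa, ratios of 0.78 (0.66 to 0.90) and 0.71 (0.56 to 0.86). Cox6b1, which faces the docking side of cytochrome c, stood at 557 and 349 CPM, and at 515 and 323 CPM. Cox8a, a small membrane-spanning subunit of complex IV, stood at 1058 and 693 CPM with mock (0.61), and at 892 and 629 CPM with NanoCa, where it was not called. The lowest ratios with mock were those of Sdha, at 83.3 against 118 CPM (-0.50), Cox7a2l (-0.26) and Atp5a1 (-0.23), none of them called.

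In B-like cells Atp5g3, Atp5j2, Cox7b, Ndufc2, Ndufa2, Ndufa7, Sdhd and Uqcr11 were higher in the tumour in both treatments. Ndufc2 stood at 205 against 125 CPM with mock and 234 against 99.2 CPM with NanoCa, and Uqcr11 at 306 against 147 CPM and 235 against 127 CPM. The estimated share of leaked RNA, each relative to its own library, also differed between the tissues. It was 38.3% and 27.7% in tumour B-like cells (mock and NanoCa) against 16.3% and 10.4% in the node. In T-like cells it was 22.9% and 28.6% against 13.1% and 9.12%. Markers of other cell types differed too. In T-like cells monocyte and macrophage markers summed to 776 and 1070 CPM in the tumour (mock and NanoCa) against 338 and 208 CPM in the node, and NK markers to 344.5 and 213.5 CPM against 64.1 and 42.3 CPM. In B-like cells monocyte and macrophage markers summed to 792 and 1148 CPM against 504 and 366 CPM, and plasma cell markers to 697 and 619 CPM against 204.5 and 165.5 CPM. Their part in the tissue ratios was not tested. After subtraction of the library profile at these shares, the nuclear share of T-like cells was 2.33% and 2.18% in the tumour and 1.90% and 1.83% in the node, and that of B-like cells 2.12% and 2.24% against 1.70% and 1.67%.

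The mt- genes leaned the other way between tissues. In T-like cells 3 of 13 with mock and 10 of 13 with NanoCa were lower in the tumour and 0 higher, and in B-like cells 4 and 11 were lower and 0 higher. The mt- share of T-like cells was 1.53% and 1.23% in the tumour and 2.15% and 2.14% in the node (mock and NanoCa). The glycolysis list leaned to the tumour, with 9 and 11 of 15 genes higher and 0 lower in T-like cells. The mitochondrial ribosome had 3 of 78 genes higher and 1 lower with mock and 15 higher and 1 lower with NanoCa in the same cells.

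**Figure D5:**
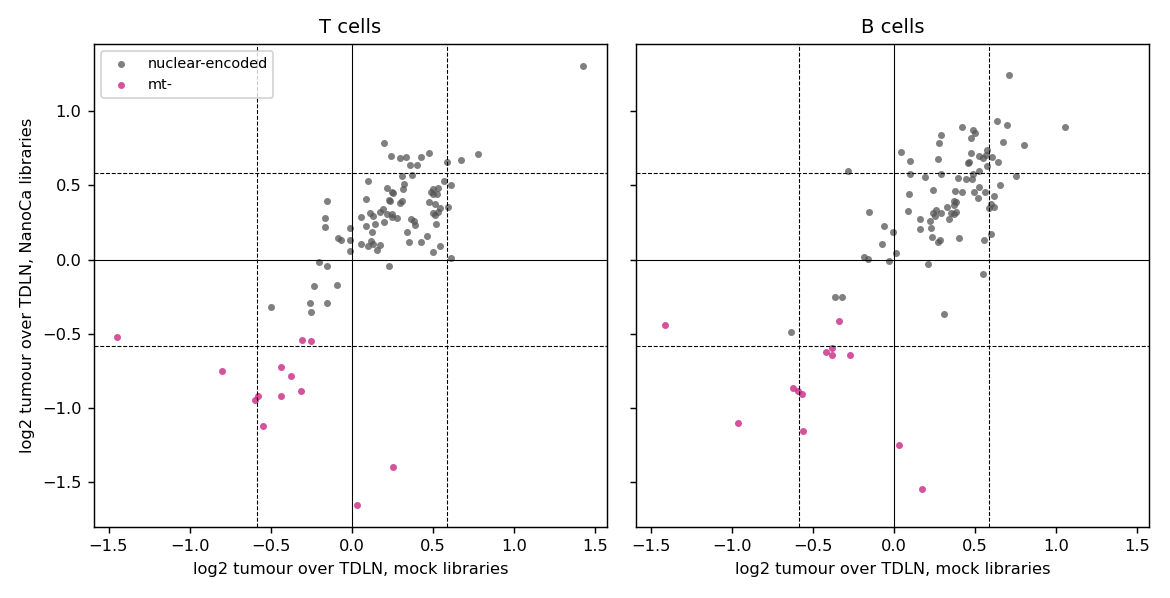
Log2 ratio of CPM, tumour over TDLN, in the mock libraries (horizontal axis) against the NanoCa libraries (vertical axis), for the respiratory chain members and the mt- genes in T-like and B-like cells; each point is a gene and dashed lines mark 1.5-fold. Members have medians of 0.25 and 0.31 in T-like cells and 0.38 and 0.44 in B-like cells (mock and NanoCa), and the mt- genes lie below 0 on the NanoCa axis.

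Within the Xist-low cells of the tumour the members varied between clusters. Cluster 4, led by Neat1, Zfpm2, Cacnb2 and Slit2, held 1.00% and 0.811% nuclear respiratory chain UMIs (NanoCa and mock) against 2.60% to 3.13% in the other 9 clusters. Its mt- share of 4.55% and 5.66% was the highest and its cytosolic ribosomal share of 10.5% and 8.76% the lowest of the 10. Neat1 and Malat1, RNAs that stay in the nucleus, stood at 1613 and 2245 CPM and at 9709 and 13741 CPM in cluster 4, and the part of nuclear RNA in these values was not tested. Cluster 18 of the TDLN had the same form, with 0.637% and 0.846% nuclear respiratory chain UMIs, 6.39% and 5.44% mt- UMIs and Neat1 at 2471 and 2128 CPM.

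Several members had a level of their own in a cluster, which is given as a description because the clusters were formed on the same cells. In cluster 3, led by Car6 and Lcn2, Cox6a2 stood at 60.0 and 57.4 CPM against 8.22 and 8.995 CPM in the other clusters, and Uqcrq, a small subunit of complex III, at 725 and 796 CPM with ratios of 0.83 and 0.86. Of the 20 genes nearest to Uqcrq on chromosome 11 only 4 were above 0 with NanoCa, and their medians were -0.35 and -0.53, where all genes had medians of -0.30 and -0.33. In cluster 13, Uqcrq stood at 228 and 225 CPM, ratios of -1.02 and -1.17, with neighbour medians of -0.01 and -0.08 and medians of all genes of 0.09 and -0.01. The neighbours of Uqcrq thus lay at or somewhat below the general level in both clusters, while Uqcrq itself was above it in cluster 3 and below it in cluster 13.

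Cox8a and Ndufa1 in cluster 1, led by Lama2 and Ankrd1, differed together with their neighbours. Cox8a stood at 1612 and 1624 CPM there, against 1142 and 1110 CPM in the other clusters, ratios of 0.50 and 0.55 that were not called. Of the 20 genes nearest to Cox8a on chromosome 19, 17 and 16 were also above 0, with medians of 0.18 and 0.27. The chromosome had medians of 0.11 and 0.12, and all genes -0.09 and -0.15. Ndufa1, a small complex I subunit, stood at 132 and 141 CPM against 201 and 234 CPM, ratios of -0.61 and -0.72. Of the 20 genes nearest to Ndufa1 on the X chromosome 19 and 20 were below 0, with medians of -0.84 and -0.85, where all genes had medians of -0.09 and -0.15 and the chromosome -0.17 and -0.22.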

How the data were processed

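Droplet RNA-seq was analysed from 4 libraries, 1 per group. Per the file headers and the submitters' processing notes, the authors made the deposited counts (UMIs per gene and barcode) with Cell Ranger 7.1.0. The genome build and annotation are those of the authors and no source used here names them. The members and lists were chosen with earlier results of these data known.

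Cells below 200 detected genes or above 10% mt- UMIs were dropped, and Scrublet doublets were removed at 0.8% of cells per 1000. Cells of each tissue were clustered with scanpy 1.11.5 (2000 variable genes, 30 components, 15 neighbours, Leiden resolution 1). Clusters were named from marker lists. The rules that left low-depth clusters unnamed were chosen after seeing the data, as were the neighbour comparisons. The rule that named the Mef2b Rgs13 cluster for these leading genes, in place of plasma cells, was also set after the data were seen. Raw counts were summed per class and library; Poisson intervals are for levels, conditional binomial intervals for ratios and binomial intervals for shares. With 1 library per group no test across samples could be run, and thus no p-value is given. The call rule was tested on simulated data with counting error only. That test cannot show how the rule fares with differences between libraries or mice.

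Named members are the 3 highest and 3 lowest NanoCa/mock ratios in the 3 largest classes of each tissue (by the interval bound nearest to 0, from 50 CPM), the paralogue pairs, preset catalytic or defining subunits, the extremes between T-like and monocyte/macrophage-like cells and between the tissues in T-like cells, the mt- genes and those called. Ndufc2, Ndufs8, Ndufaf3, Uqcr11, Uqcrq, Ndufa1 and Cox8a in a cluster were picked after their values were seen.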

Additional observations from a re-analysis of the deposited data

Results flagged for a closer look

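The mt-Atp6 ratio, NanoCa over mock, had opposite signs in the 2 tissues in every class measured in both: -0.8985 in tumour and 0.7839 in TDLN T-like cells, -0.8928 and 0.8297 in B-like cells, -0.8121 and 0.9878 in NK-like cells, -0.6967 and 0.7769 in monocyte/macrophage-like cells, and -1.0955 and 0.9462 in Xist-low cells. The Ndufa4l2 ratio was -0.8379 in tumour and 0.984 in TDLN Xist-low cells. With 1 library per group, the difference between the tissues was not tested for either gene.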

How the results depend on the processing

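No paired analysis was possible because each group has 1 library. Of 65 recomputed totals 53 stayed within 1.5 times. Of the counts per class 68 of 226 did not. Shares of UMIs moved beyond their counting interval in 719 of 1474 recomputations and summed ratios in 91 of 190. For NanoCa over mock in the tumour (7 calls, 3 higher and 4 lower) the other totals were 30 calls at the lower fold threshold, 8 higher and 22 lower, and after subtraction of leaked RNA, run without the Xist-low cells, 7 calls (5 higher and 2 lower) against 4 (2 and 2) in the same 4 classes. In the TDLN (6 calls) they were 10 without doublet removal, 13 from 10 UMIs and 13 with no minimum, 33 at the lower fold threshold, 16 with cells thinned to 1000 UMIs and after subtraction 7 (2 higher and 5 lower) against 4 (0 and 4) in the same 6 classes. Tumour over TDLN gave 48 calls with mock and 85 with NanoCa without doublet removal, against 25 and 49. With cells thinned to 1000 UMIs, 33 of the tumour and 45 of the TDLN members had the same highest class in both libraries. Of 2366 single-gene values 2024 moved by less than their interval, 341 moved further and 1 changed sign, that of mt-Nd6 in the Mef2b Rgs13 cluster over B-like cells with mock, from -0.6203 to 0.7451 on thinning; the cause was not tested. Thinning was a single random draw of UMIs, and another draw gives somewhat different values. Counts of members higher in the Mef2b Rgs13 cluster stayed within 1.5 times. Without replicates, differences between mice cannot be told apart from those of treatment.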
